A study of Homo sapiens with 16 samples.

Results

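Collagen chain genes encode the polypeptides that assemble, as trimers with glycine at a fixed spacing, into the collagens of fibrils, basement membranes and microfilaments. They were described here in L1236, an established human B-cell-derived Hodgkin lymphoma cell line. The genes were taken as every gene-level array probe set whose only symbol is COL, a number, A and a number, leaving out COL12A1 and antisense genes. The rule found 44 of 33297 probe sets, which stand for 42 of 18395 genes. COL11A2 has 3 of the probe sets, and the one with the highest mean was used; the remaining pair held identical values and differed by -0.49 between the groups. The signal of every member was compared between arrays labelled induced and arrays labelled uninduced.

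Both groups were infected with a retrovirus that carries a hairpin RNA aimed at RELB, an NF-kB subunit that binds DNA in the alternative pathway. In the induced group doxycycline was given to switch the hairpin on, and the uninduced group was left without doxycycline. Each group has n = 4 arrays, in the order B_1 with last number 1, B_1 with 4, B_4 with 1 and B_4 with 4. The labels do not state what the B code and the last number mean, which clone or pool was used, or whether the arrays stand for separate cultures. The p-values therefore cover only the variation among these arrays, and that may be technical. Doxycycline itself was given to the induced group only. Its own effect, that of the hairpin and any other difference between the groups, such as in the cells themselves, cannot be told apart. RELB had a log2 signal of 7.25 ± 0.11 in arrays labelled induced and 7.40 ± 0.13 in arrays labelled uninduced (SD, n = 4 each; exact permutation test, two-sided, p = 0.171, where 0.0286 is the smallest p possible). The hairpin's target therefore does not check the labels, and every direction below goes by them. TNFRSF8 (CD30), a defining marker of Hodgkin and Reed-Sternberg cells, had 11.59 in arrays labelled induced and 6.89 in arrays labelled uninduced. CD79A, a part of the B-cell receptor, had 11.04 in arrays labelled induced and 5.73 in arrays labelled uninduced. Other markers went the other way or stayed level: BATF3 had 6.62 in arrays labelled induced and 10.93 in arrays labelled uninduced, FSCN1 had 6.91 and 8.75 in that order, and BLK had 5.41 and 6.20. CD79B differed by -0.06 and did not pass. MS4A1 (CD20) was dim, at 4.52 in arrays labelled induced and 4.49 in arrays labelled uninduced.

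Collagen chains are made in the endoplasmic reticulum, where prolyl and lysyl hydroxylases modify them and chaperones hold the trimer. Outside the cell, the ends of many chains are cut off and lysyl oxidases cross-link the fibrils. Fibroblasts make most of the fibrillar collagen of a lymph node, and bands of it are a known feature of some Hodgkin lymphomas. Integrins with the ITGB1 chain and the DDR receptors bind collagen at the cell surface.

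Few collagen genes differed between the groups, and those that did belonged to different classes. Of the 42 members, 32 had a mean log2 signal high enough to be tested, and 10 lay under that limit, at a mean of 4.77 or less. In limma's moderated test with adjusted p under 0.05, 3 members rose (COL6A3, COL5A3 and COL4A5) and 4 fell (COL19A1, COL9A2, COL22A1 and COL4A1) in arrays labelled induced. These 7 of 32 (21.9%) stand beside 55.5% of all 13796 tested genes, of which 27.1% rose and 28.4% fell. Only COL6A3 and COL19A1 among the tested members passed with at least a 2-fold change, against 16.5% of all tested genes. The values of the groups did not overlap for 7 tested members, against 49.8% of all tested genes. The median log2 difference was 0.06 over the 32 members and 0.02 over all tested genes, and the median size of the difference was 0.10 and 0.30. The share of members was below that of all genes at either level: at or above the median level of gene probe sets, 6.27, 4 of 13 members passed beside 65.5% of all tested genes there, and below it 3 of 19 beside 35.5%. The split depends on scaling. Centring each array on its median moved the median gene up by 0.15, and then 12 members rose and 4 fell, while quantile normalisation moved it up by 0.08 and gave 8 and 4. The same settings called 63% and 61.4% of all tested genes. The 7 members above were called under both, and the 5 gained under quantile normalisation (COL13A1, COL15A1, COL3A1, COL4A6 and COL5A1) were higher in arrays labelled induced.

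**Figure D1:**
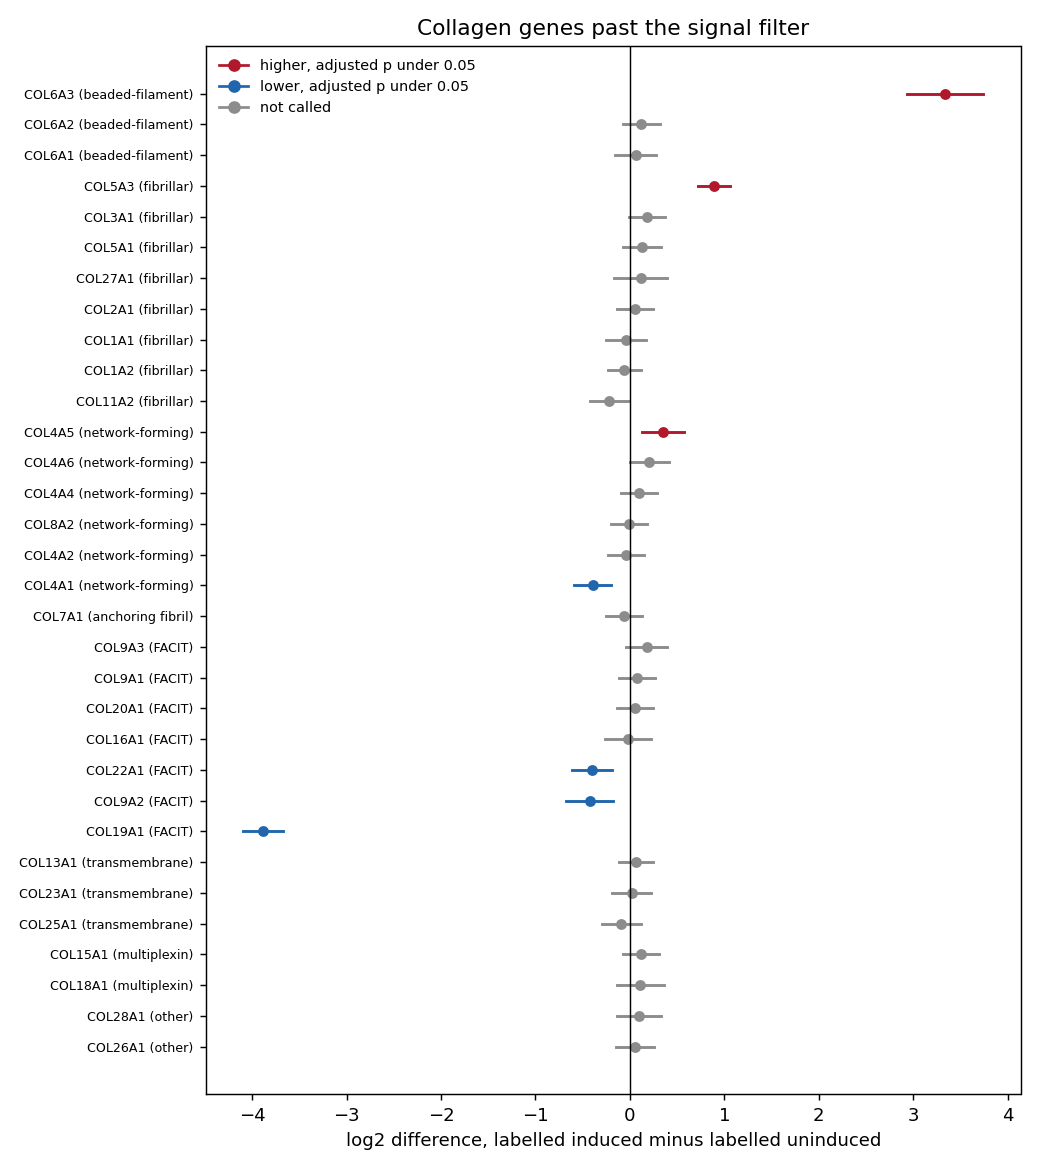
Log2 difference (arrays labelled induced minus arrays labelled uninduced, with its 95% interval, not adjusted for multiple tests) of the 32 collagen genes past the signal limit, grouped by class. COL6A3 at 3.34 and COL19A1 at -3.88 stand far from 0, COL5A3 is at 0.89, and the other members lie between -0.43 and 0.35.

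The promoter windows of the 3 collagen genes with the largest differences are given because RELB acts by binding kB sites. Each is the stretch of 250 bases before the RefSeq start in GRCh38.p14, read 5′ to 3′ on the gene's own strand. Capitals mark a match to a loose kB pattern (GGG, then 5 bases of any kind, then CC) on either strand, and matches that overlap form a longer run.
COL6A3, chr2:237414165-237414414, minus strand: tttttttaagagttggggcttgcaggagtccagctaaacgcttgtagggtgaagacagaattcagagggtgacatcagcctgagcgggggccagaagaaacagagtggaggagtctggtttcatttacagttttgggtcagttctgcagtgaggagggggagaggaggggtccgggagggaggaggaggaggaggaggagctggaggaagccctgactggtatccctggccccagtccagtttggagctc
COL5A3, chr19:10010505-10010754, minus strand: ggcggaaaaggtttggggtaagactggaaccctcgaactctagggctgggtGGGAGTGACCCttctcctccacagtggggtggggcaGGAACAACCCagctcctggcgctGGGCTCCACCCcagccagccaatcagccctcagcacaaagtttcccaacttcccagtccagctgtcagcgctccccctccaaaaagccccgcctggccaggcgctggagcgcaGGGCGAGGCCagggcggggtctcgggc
COL19A1, chr6:69866306-69866555, plus strand: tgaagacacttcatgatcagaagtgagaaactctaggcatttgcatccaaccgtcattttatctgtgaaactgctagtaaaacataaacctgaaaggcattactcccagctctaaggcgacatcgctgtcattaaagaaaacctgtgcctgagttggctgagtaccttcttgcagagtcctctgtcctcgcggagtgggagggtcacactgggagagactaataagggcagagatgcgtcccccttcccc
The COL5A3 window held 6 matches, counting overlapping ones, while the COL6A3 and COL19A1 windows held 0. Of all 35116 RefSeq promoter windows of this length 54.4% held the pattern, as did 26 of the 42 windows of the 30 members with an entry. TATAAA stood in 10.7% of all windows and in 7 of the members', and GGGCGG in 42.6% and in 23, and neither stood in the COL6A3 or COL19A1 window. The COL5A3 window held 1 match to GGGCGG and 0 to TATAAA. These counts describe letters and not binding.

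COL6A3 encodes the large chain that joins the COL6A1 and COL6A2 chains in type VI collagen, which forms beaded microfilaments around cells. COL6A3 had log2 signals of 8.13, 8.03, 7.50 and 6.94 in arrays labelled induced, against 4.29, 4.23, 4.35 and 4.37 in arrays labelled uninduced. The groups were far apart, and in the induced group both B_4 arrays lay below both B_1 arrays. The difference was 3.34 ± 0.18 (SE), or 10.1-fold, with an adjusted p of 6.58e-08. The mean in arrays labelled uninduced, 4.31, lay under the limit of 4.78 used for testing, so COL6A3 was tested only through its high group. Set against that limit it was at least 7.33-fold higher. In bulk RNA, fewer cells of a type and less RNA per cell cannot be told apart. At exon level 42 of its 43 probe sets were higher in arrays labelled induced. Of 40 tested 39 passed, by up to 6.50, beside 35.4% of all tested exon-level probe sets. The mean over the 43 was 4.74 in arrays labelled uninduced, under the exon-level limit of 4.77. Some could thus be tested through the high group alone, so this count is no separate support. Probe set 11 in number order did not follow the rest, with a mean of 9.98 in arrays labelled induced and 9.99 in arrays labelled uninduced.

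The partner chains of COL6A3 did not change detectably, although COL6A2 passed as higher (0.27) when each array was centred on its median. COL6A1 had 6.73, 7.30, 7.09 and 7.18 in arrays labelled induced, against 6.83, 6.96, 6.996 and 7.26 in arrays labelled uninduced. Its groups overlapped (difference 0.06 ± 0.10 SE, 95% interval -0.15 to 0.28, adjusted p = 0.630). COL6A2 had 6.87, 7.08, 7.22 and 7.04, against 6.95, 6.83, 6.98 and 6.97 in arrays labelled uninduced. These also overlapped (0.12 ± 0.09 SE, 95% interval -0.08 to 0.32, adjusted p = 0.282). A COL6A2 exon-level probe set, number 7 of 30, went apart from its gene. It had 5.30, 5.37, 5.99 and 6.51 in arrays labelled induced and 10.57, 10.63, 10.60 and 10.57 in arrays labelled uninduced, with no overlap. That is a difference of -4.80 ± 0.23 (SE, adjusted p = 1.01e-05), singled out after its values were seen. The paralogous chains COL6A5 and COL6A6 lay under the limit, at means of 3.21 and 3.67 in arrays labelled induced and 3.28 and 3.61 in arrays labelled uninduced.

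**Figure D2:**
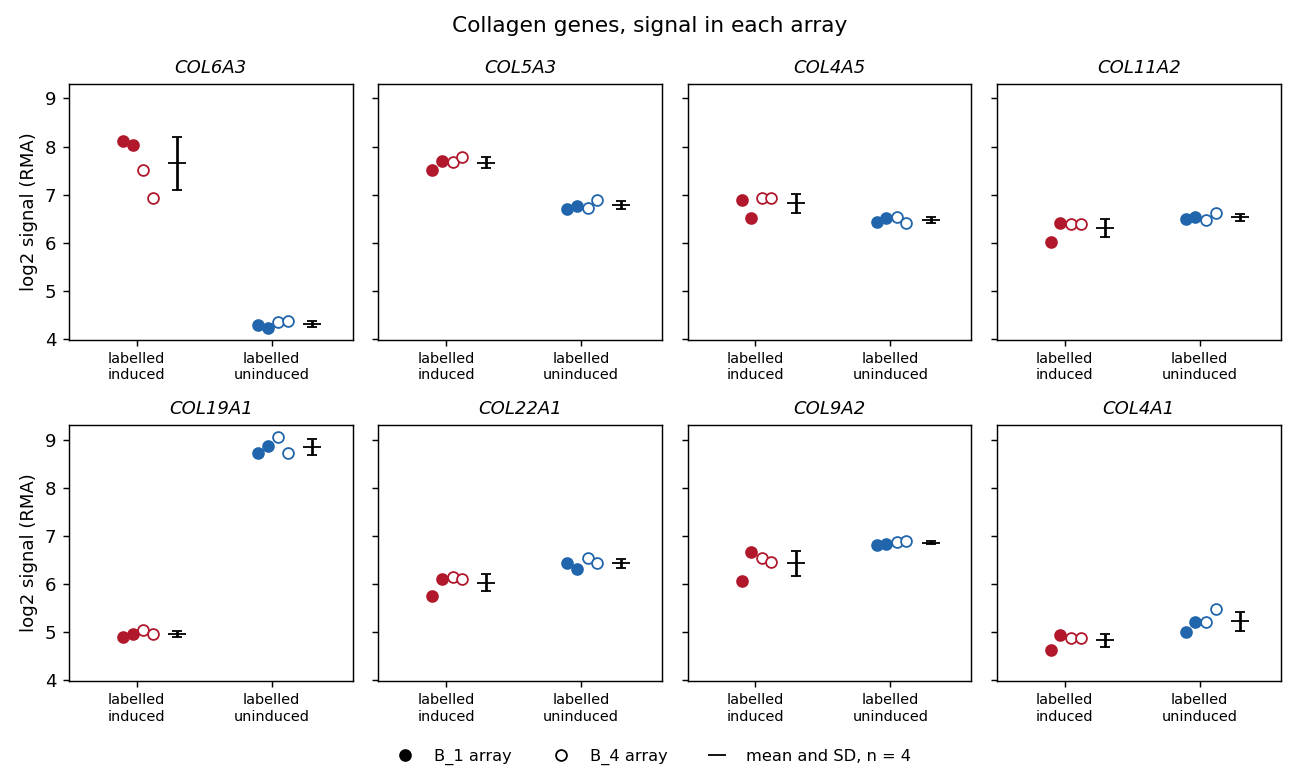
Log2 signal (RMA) of 8 collagen genes in each array, labelled induced on the left and labelled uninduced on the right of each panel, with filled points for B_1, open points for B_4 and bars for the mean and SD (n = 4). COL6A3 is high and COL19A1 low in the induced arrays, the B_4 points of COL6A3 lie below its B_1 points there, and COL4A5 overlaps at 6.52.

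Among the 11 fibrillar genes 8 were tested and only COL5A3 passed, as higher, beside 55.5% of all tested genes. COL5A3 encodes a chain of type V collagen, which nucleates fibrils and limits their diameter. It had 7.52, 7.70, 7.67 and 7.79 in arrays labelled induced, against 6.71, 6.77, 6.73 and 6.90 in arrays labelled uninduced. The groups did not overlap, and the difference was 0.89 ± 0.08 (SE), or 1.85-fold, with an adjusted p of 2.64e-06. Of its 66 exon-level probe sets 57 were higher in arrays labelled induced. Of 63 tested 38 rose and 1 fell, beside 17.9% and 17.5% of all tested exon-level probe sets. The mean over the 66 was 8.05 ± 0.09 in arrays labelled induced and 6.69 ± 0.07 in arrays labelled uninduced (SD, n = 4 each). That is a difference of 1.36, which exceeds the gene-level value. The biggest, probe set 63, had 9.69, 10.23, 10.37 and 10.36, against 4.63, 3.76, 6.07 and 4.48 in arrays labelled uninduced. COL5A1, the partner type V chain, differed by 0.13 (adjusted p = 0.257), and COL5A2 lay under the limit.

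COL11A2, a cartilage fibril chain, had 6.03, 6.41, 6.39 and 6.39 in arrays labelled induced, against 6.48, 6.53, 6.47 and 6.62 in arrays labelled uninduced. The groups did not overlap, yet the difference of -0.22 ± 0.09 (SE) missed the threshold at an adjusted p of 0.0623. Its exon-level probe sets were mixed, with 2 that rose and 6 that fell of 66 tested, where 35.4% of all tested ones passed. COL1A1, the main chain of bone and skin fibrils, had 6.60, 6.82, 6.77 and 6.57, against 6.69, 6.74, 6.63 and 6.86 in arrays labelled uninduced. Its groups overlapped (-0.04 ± 0.09 SE, 95% interval -0.25 to 0.17, adjusted p = 0.753). COL1A2 and COL3A1, the other abundant fibril chains of connective tissue, differed by -0.06 and 0.18 and did not pass. The 7 fibrillar members not called lay between -0.22 and 0.18.

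COL19A1 fell furthest of the tested members. It encodes a collagen of the FACIT class (fibril-associated, with interrupted helices) that lies at basement membrane zones. COL19A1 had 4.89, 4.96, 5.04 and 4.96 in arrays labelled induced, against 8.73, 8.86, 9.07 and 8.72 in arrays labelled uninduced. The groups were well apart and each was tight, and the difference of -3.88 ± 0.09 (SE), or 14.8-fold lower, had an adjusted p of 1.18e-10. All 50 exon-level probe sets of COL19A1 were lower in arrays labelled induced. Of 49 tested 45 passed, beside 35.4% of all tested exon-level probe sets. Dim ones could be tested through the high group alone, so this count is no separate support. Probe set 6 showed the widest gap, with 2.16, 2.77, 3.50 and 3.08 in arrays labelled induced and 10.72, 10.46, 10.58 and 10.41 in arrays labelled uninduced (difference -7.67). Probe sets 9 and 32 stayed bright in both groups, with means of 10.95 and 10.70 in arrays labelled induced and 11.42 and 11.06 in arrays labelled uninduced.

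COL22A1, another FACIT gene, known from tissue junctions such as that of muscle and tendon, fell by a small amount at gene level. It had 5.76, 6.10, 6.14 and 6.10 in arrays labelled induced, against 6.43, 6.31, 6.54 and 6.43 in arrays labelled uninduced. The groups did not overlap (-0.40 ± 0.10 SE, adjusted p = 0.00446), and the difference was -0.25 under either other scaling. At exon level the gene came apart into stretches. Probe sets 1 to 24, in order of their number, were all lower in arrays labelled induced. Of 23 tested 16 passed, each by at least 2-fold, beside 21.1% of all tested exon-level probe sets. The array means of this stretch were 5.37, 5.84, 6.12 and 5.80 in arrays labelled induced, against 8.23, 8.30, 7.97 and 7.81 in arrays labelled uninduced. That is a difference of -2.29, with probe set 16 at -4.86. Probe sets 25 to 65 averaged 5.99 ± 0.17 in arrays labelled induced and 5.98 ± 0.15 in arrays labelled uninduced (SD, n = 4 each), and 1 of 28 tested passed. The mean over all 65 probe sets differed by -0.84, more than the gene-level value, which is a separate RMA summary. The border was placed after the values were seen, so it has no test, and no file used here says how the numbers run along the gene.

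**Figure D3:**
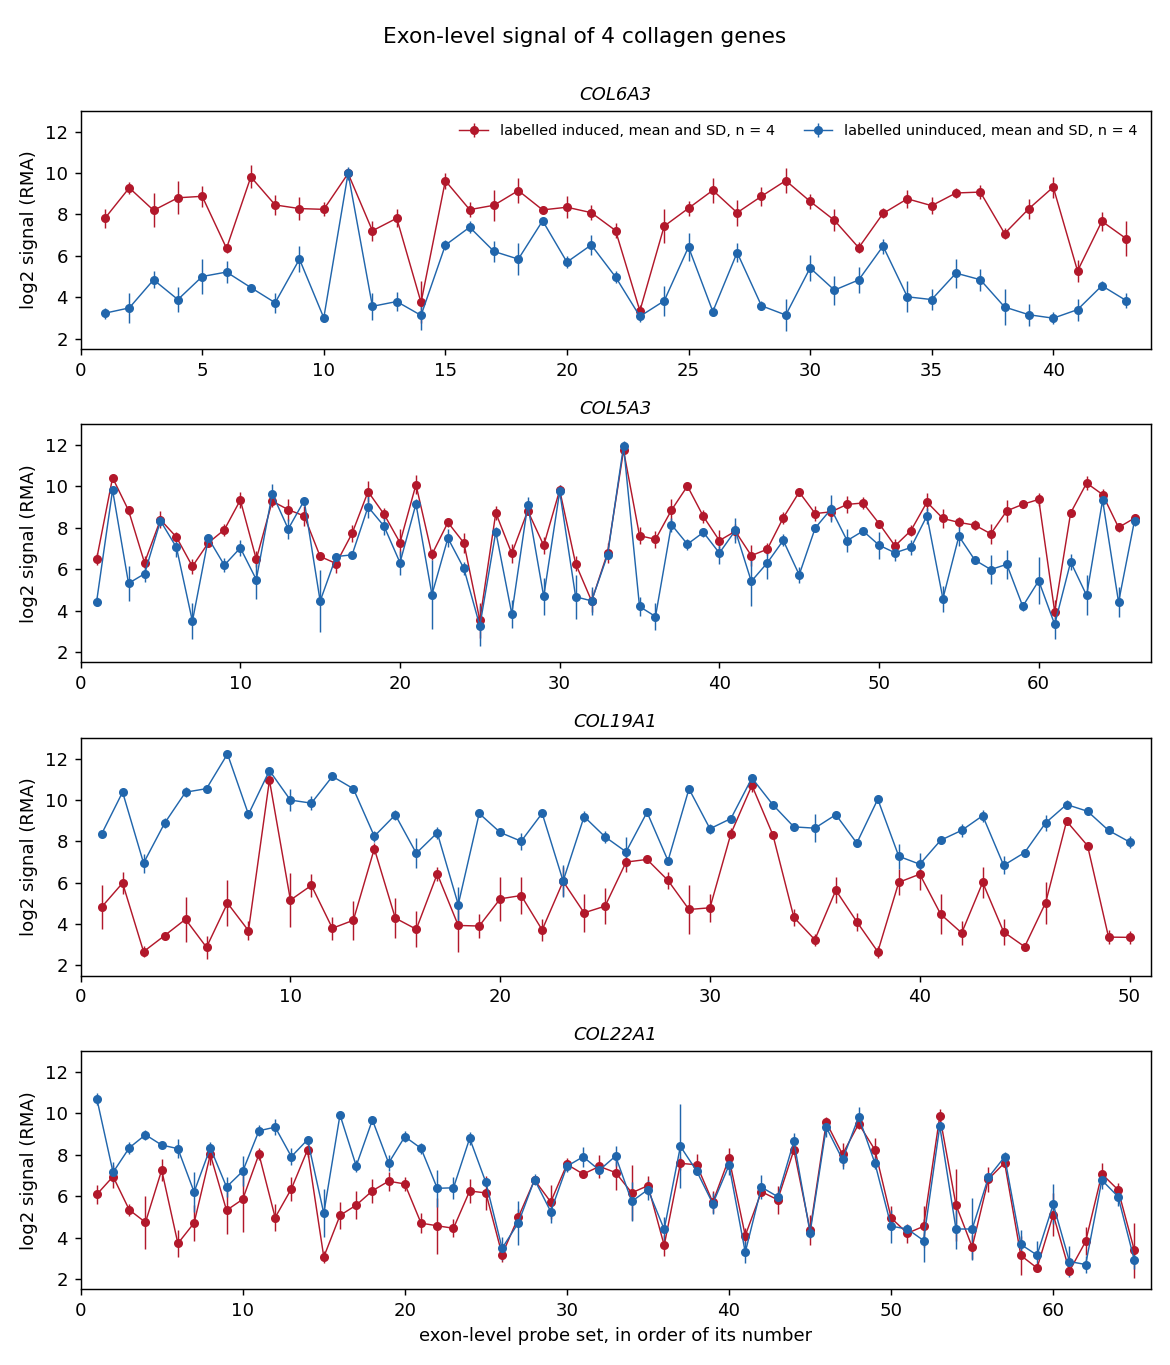
Mean log2 signal and SD (n = 4) of each exon-level probe set of COL6A3, COL5A3, COL19A1 and COL22A1, in order of probe set number, red for arrays labelled induced and blue for arrays labelled uninduced. COL6A3 is raised and COL19A1 lowered along nearly the whole order, while COL22A1 is lowered over probe sets 1 to 24 and overlaps from 25 on.

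COL9A2 encodes a chain of type IX collagen, which coats the type II fibrils of cartilage. COL9A2 had 6.07, 6.66, 6.54 and 6.45 in arrays labelled induced, against 6.82, 6.84, 6.88 and 6.89 in arrays labelled uninduced. The groups did not overlap (-0.43 ± 0.11 SE, adjusted p = 0.00805; -0.28 with median centring). Of 27 tested exon-level probe sets 8 fell and 0 rose, where 35.4% of all tested exon-level probe sets passed. COL9A3, its partner chain, had 6.93, 7.40, 7.40 and 7.38, against 6.92, 6.98, 7.09 and 7.42 in arrays labelled uninduced. Its groups overlapped (0.18 ± 0.10 SE, adjusted p = 0.160), and 0 of 29 tested exon-level probe sets passed. COL9A1, the other partner, differed by 0.08 (adjusted p = 0.484). COL16A1, a widely expressed FACIT gene, had 6.002, 6.64, 6.44 and 6.57 in arrays labelled induced, against 6.32, 6.38, 6.53 and 6.52 in arrays labelled uninduced. These overlapped too (-0.02 ± 0.11 SE, adjusted p = 0.879). In all, 3 of the 7 tested FACIT genes fell and 0 rose, beside 28.4% and 27.1% of all tested genes. A further 2 were under the limit. COL9A1 and COL9A3 passed as higher with median centring.

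Network-forming collagens make the sheets of basement membranes. Of 6 tested genes of this class 2 moved, in opposite directions, beside 55.5% of all tested genes. COL4A1, the ubiquitous type IV chain, had 4.63, 4.94, 4.88 and 4.88 in arrays labelled induced, against 5.004, 5.21, 5.21 and 5.48 in arrays labelled uninduced. The groups did not overlap (-0.39 ± 0.09 SE, adjusted p = 0.00266). The mean in arrays labelled induced, 4.83, lay close to the limit of 4.78. The difference was -0.24 with median centring and -0.63 as an exon-level mean. Of 34 tested exon-level probe sets 6 fell, by as much as 3.17, and 0 rose, beside 35.4% called over all. COL4A2, whose chain pairs with that of COL4A1 and whose gene shares its promoter region, differed by -0.04 (adjusted p = 0.728). COL4A5, the chain altered in X-linked Alport syndrome, had 6.89, 6.52, 6.93 and 6.93 in arrays labelled induced, against 6.43, 6.52, 6.53 and 6.42 in arrays labelled uninduced. An induced array reached down into the other group (0.35 ± 0.10 SE, adjusted p = 0.0120), and 7 of 46 tested exon-level probe sets rose while 0 fell, again beside 35.4% over all. COL4A6, its neighbour on the X chromosome, differed by 0.21 (adjusted p = 0.0848).

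No gene of the remaining classes passed, beside 55.5% of all tested genes, although COL13A1 and COL15A1 passed as higher under both other scalings. COL7A1, the anchoring fibril of skin, had 6.20, 6.49, 6.53 and 6.46 in arrays labelled induced, against 6.30, 6.48, 6.50 and 6.64 in arrays labelled uninduced (-0.06 ± 0.09 SE, adjusted p = 0.575). COL18A1, the source of endostatin, had 6.94, 7.43, 7.20 and 7.18, against 7.14, 6.92, 7.05 and 7.19 in arrays labelled uninduced (0.11 ± 0.11 SE, adjusted p = 0.438). Both pairs of groups overlapped. COL13A1, a transmembrane collagen of the neuromuscular junction, had 6.10, 6.41, 6.23 and 6.37 in arrays labelled induced, against 6.10, 6.22, 6.24 and 6.30 in arrays labelled uninduced (0.06 ± 0.08 SE, adjusted p = 0.560). COL23A1, also transmembrane, had 6.82, 7.25, 7.07 and 7.15, against 6.92, 7.04, 6.92 and 7.33 in arrays labelled uninduced (0.02 ± 0.09 SE, adjusted p = 0.885). The groups of these genes overlapped as well. Over all classes the 25 tested members that were not called lay between -0.22 and 0.21, and the 10 under the limit between -0.09 and 0.17.

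At exon level the members had 1866 probe sets, of which 1310 were tested. Of these 131 rose and 115 fell, 18.8% in all, beside 35.4% of all 168240 tested exon-level probe sets (17.9% up and 17.5% down). The limit for testing was 4.77 here, and the widest gaps given for COL6A3, COL5A3 and COL19A1 are against group means under it. At least 2-fold, 92 rose and 83 fell, beside 21.1% of all. Without COL6A3, COL19A1 and COL5A3, chosen after their values were seen, 54 rose and 69 fell of 1158, or 10.6%.

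By B code, COL6A3 passed within the induced arrays and COL28A1 within the uninduced arrays, and no member passed over all of them. Over all 8 arrays 0 members passed for B_4 against B_1 in limma, as did 0% of all tested genes, and 4 had an unadjusted p under 0.05, beside 13.9% of all tested genes. COL5A1 had 6.36, 6.24, 6.04 and 6.15 in B_4 arrays, against 5.76, 6.04, 5.84 and 5.85 in B_1 arrays (0.33 ± 0.09 SE, unadjusted p = 0.00476, adjusted p = 0.245). COL28A1 had 5.04, 5.40, 5.16 and 5.46 in B_4 arrays, against 5.01, 5.12, 4.77 and 4.79 in B_1 arrays. Both genes were higher in B_4 on the whole, with values of the codes close to or inside each other. COL28A1 was 0.34 higher and COL9A3 0.27 higher in B_4 (unadjusted p = 0.00845 and 0.0199). COL20A1, named because the count is small, was 0.21 higher (unadjusted p = 0.0340). For COL6A3 the difference by induction label was 2.86 in B_4 arrays and 3.82 in B_1 arrays. The interaction of -0.96 ± 0.21 (SE) had an unadjusted p of 0.00106 and missed the threshold after adjustment, at 0.107, where 0.297% of all tested genes passed. In the 4 arrays labelled induced alone, COL6A3 was lower in B_4 by -0.86 ± 0.16 (SE, adjusted p = 0.0143), in a comparison that called 0.217% of all tested genes. In the 4 arrays labelled uninduced alone, COL28A1 was higher in B_4 by 0.53 ± 0.11 (SE, adjusted p = 0.0266), where 9.09% passed. Each of these fits of 4 arrays also holds the last number, so very little replicate spread is left. Their errors and p-values rest mostly on limma's prior, drawn from the spread of all tested genes. The smaller COL6A3 difference in B_4 was seen in 38 of 43 exon-level probe sets (median difference 2.99 in B_4 and 3.64 in B_1), though 0 of 40 tested passed for the interaction, as did 0% of all. The other called members differed in the same direction in both codes, with COL19A1 at -3.90 in B_4 and -3.87 in B_1, and COL4A5 at 0.46 in B_4 and 0.23 in B_1.

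The last number of the titles called 0 members in limma, as it did 0% of all tested genes. At an unadjusted p under 0.05 there were 7 members, each higher with last number 4, from 0.20 (COL4A1) to 0.28 (COL27A1), beside 7.04% of all tested genes. In each of these members the lowest induced array was that of B_1 with last number 1, as it was for most tested members. Its interaction with the induction label called 0 members, and 0 had an unadjusted p under 0.05, beside 2.95% of all tested genes.

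Most tested genes that modify and assemble collagen chains passed, in either direction. Of 20 tested genes of this list 7 rose and 9 fell in arrays labelled induced, 80% beside 55.5% of all tested genes, and the median difference was -0.07. P4HA2, a catalytic prolyl hydroxylase subunit, had 4.32, 4.48, 4.64 and 4.65 in arrays labelled induced, against 8.59, 8.48, 9.12 and 9.15 in arrays labelled uninduced (adjusted p = 8.19e-11). PLOD2, a lysyl hydroxylase, had 3.51, 3.13, 3.36 and 3.20, against 6.86, 6.82, 6.69 and 6.55 in arrays labelled uninduced (-3.43 ± 0.09 SE, adjusted p = 1.96e-10). FKBP10, a collagen chaperone, had 4.91, 5.12, 4.98 and 5.11, against 7.40, 7.57, 7.64 and 7.39 in arrays labelled uninduced (-2.47 ± 0.10 SE, adjusted p = 4.22e-09). All of these fell without overlap. The induced means of P4HA2 and PLOD2 lay under 4.78, and against that limit they were at least 16.7-fold and at least 3.89-fold lower. Related enzymes went the other way: P4HA1, the other main catalytic subunit, rose by 1.20, its partner P4HB by 1.22 and the lysyl hydroxylase PLOD1 by 1.09. PLOD3 and SERPINH1 (HSP47, a chaperone of the folded trimer) fell by 2.49 and 1.41.

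**Figure D4:**
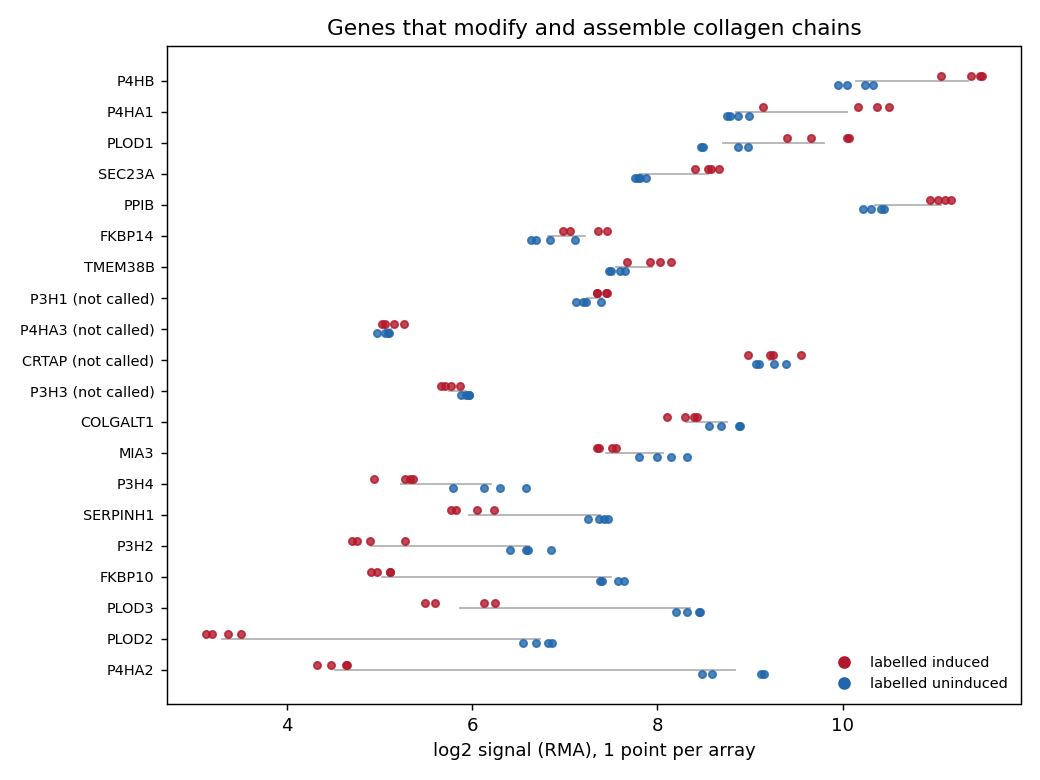
Log2 signal (RMA) of 20 genes that modify and assemble collagen chains, 1 point per array, red (upper row) for labelled induced and blue (lower row) for labelled uninduced, with a grey line between the means. P4HA2, PLOD2, PLOD3 and FKBP10 lie far to the left in the induced arrays, and P4HB, P4HA1 and PLOD1 to the right.

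Of 9 tested genes for propeptide processing and cross-linking, 3 rose and 2 fell, 55.6% beside 55.5% of all tested genes. LOXL3, a lysyl oxidase, had 5.67 ± 0.16 in arrays labelled induced and 7.67 ± 0.46 in arrays labelled uninduced (SD, n = 4 each; difference -1.997). BMP1, which trims the C-terminal propeptides, rose by 0.59, and FURIN, a proprotein convertase, by 0.42. Of 11 tested collagen receptors 5 rose and 2 fell, 63.6% beside 55.5%. Only 3 rose without induced replicate 3 or 4 or uninduced replicate 2, 3 or 4. ITGB1, the shared beta chain of collagen-binding integrins, had 8.80 ± 0.12 in arrays labelled induced and 6.76 ± 0.07 in arrays labelled uninduced. DDR2, a receptor tyrosine kinase for fibrillar collagen, rose by 1.07, and CD93, a transmembrane lectin-like receptor, fell by 3.22 (at least 8.13-fold against the limit, which its induced mean of 4.58 lay under). The collagen-binding alpha chains ITGA2 and ITGA10 lay under the limit, and ITGA11 rose by 0.24.

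Of 8 tested genes for collagen degradation 0 rose and 3 fell, 37.5% beside 55.5% of all tested genes. Of these 2 fell without induced replicate 2 or uninduced replicate 1 or 2, and 1 rose without induced replicate 1 or uninduced replicate 1. TIMP1, an inhibitor of matrix metalloproteinases, had 6.15 ± 0.15 in arrays labelled induced and 9.82 ± 0.18 in arrays labelled uninduced (SD, n = 4 each; difference -3.67). The lysosomal proteases CTSB and CTSK fell by 0.57 and 0.46. Among partners of collagen in the matrix 3 rose and 3 fell of 10 tested, 60% beside 55.5%. LAMC1, a laminin chain, rose by 4.31 and FBN2, a microfibril protein, by 3.002, while NID2, which links laminin and type IV collagen, fell by 3.61. Their dim group lay under 4.78 in each case, and against that limit LAMC1 was at least 14.7-fold and FBN2 at least 5.80-fold higher, and NID2 at least 11.3-fold lower.

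Several markers of the cells that make collagen in tissue were too dim to test. Of 12 fibroblast markers 6 were tested. PDGFRB rose by 0.59 and FAP fell by 5.27. TCF21 (-0.08), THY1 (-0.05), TWIST1 (-0.02) and FBLN1 (-0.01) did not pass. TWIST1 was not dim, at 6.36 in arrays labelled induced and 6.38 in arrays labelled uninduced. DCN, LUM, POSTN, PDGFRA, DPT and PDPN lay under the limit. FAP lay under it too in arrays labelled induced, at 3.29, and was at least 13.8-fold lower against it. The mean log2 signal over the 12 ran from 4.43 to 4.49 in arrays labelled induced and from 4.80 to 4.83 in arrays labelled uninduced. Of 7 endothelial markers 2 were tested; PECAM1 fell by 5.60, CLDN5 differed by 0.16 and did not pass, and VWF, CDH5, KDR, TEK and EMCN lay under the limit. Their mean ran from 4.62 to 4.67 in arrays labelled induced and from 5.35 to 5.50 in arrays labelled uninduced. Among 6 chondrocyte markers 3 were tested; ACAN rose by 0.26, SOX9 fell by 0.31 and CHAD differed by 0.01, with means from 4.73 to 4.95 in arrays labelled induced and from 4.77 to 4.85 in arrays labelled uninduced. These chondrocyte calls fell to 0 without replicate 1 of either group and to 1 without uninduced replicate 2 or 4. The B-cell markers averaged 7.69 to 7.97 in arrays labelled induced and 6.03 to 6.29 in arrays labelled uninduced, with 3 that rose (CD79A, PAX5 by 2.76 and CD22 by 4.11) and 1 that fell (BLK) of 6 tested. The Hodgkin and Reed-Sternberg cell markers averaged 8.55 to 8.93 in arrays labelled induced and 8.22 to 8.33 in arrays labelled uninduced, with 4 that rose, among them TNFRSF8 and TRAF1 (by 2.70), and 2 that fell (BATF3 and FSCN1) of 8. The share called was 33.3% of tested fibroblast, 50% of endothelial and 66.7% of chondrocyte markers. It was 66.7% of B-cell and 75% of Hodgkin and Reed-Sternberg cell markers, beside 55.5% of all tested genes. The part of the marker shifts in the collagen values was not tested.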

How the data were processed

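RNA of L1236 cells was hybridised to Affymetrix whole-transcript arrays, 4 labelled induced and 4 labelled uninduced. The deposited values are log2 signals, made with RMA and Partek per the submitters' processing notes, which give no versions. No label or header names the log base, so base 2 rests on the way RMA commonly reports and on a range of 2.07 to 14.1. RMA commonly brings arrays to a shared scale, so a global shift may have been removed. The medians of the deposited gene-level arrays still ran from 5.79 to 5.88. The exon-level columns are a second summary of the same 8 arrays (4428 of 4428 shared features identical), and a platform annotation paired probe sets with genes, of which 19460 gene-level probe sets had 1 symbol. A further probe set that carries COL1A2 with another symbol was not used, and COL17A1 was not analysed here. The genome build is not given in the sources used here.

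Genes with several probe sets kept the brightest by mean. Those below the 25th percentile of means were not tested, so tested means are 4.78 or more. The induction label was tested with limma 3.58.1 (R 4.3.3) over 8 arrays, adding the B code and the last number as covariates (4 residual and 6.27 prior degrees of freedom). Calls needed a Benjamini-Hochberg adjusted p under 0.05, computed across 13796 genes. Each p for a gene or probe set comes from limma, apart from the exact permutation test of RELB. Exon-level probe sets with 1 symbol were fitted likewise. The steps were tested on simulated data. Figures were drawn with matplotlib 3.10.9.

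Members with a mean above the median level in either group, or with a called change of at least 2-fold, are given by array; other members by name where called, otherwise by range; list genes by the 3 lowest p, with further ones named in places after their values were seen. The members and lists were chosen with earlier results of these data known. Collagen classes, the promoter motifs, the COL22A1 border, the neighbouring genes and the totals without COL6A3, COL19A1 and COL5A3 were chosen after the values were seen. A test of unequal exon-level differences within a gene (diffSplice) was also run then and left out, because most of its calls on simulated data were false. Alternatives left out each array in turn or changed 1 setting: the filter, the scaling between arrays (quantile or median), the summary of a gene (mean of its probe sets at gene or exon level), the variance prior, the covariates, a block for the pair, or a threshold of 0.1.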

Additional observations from a re-analysis of the deposited data

Results flagged for a closer look

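For the 17 collagen genes given by array or called, each group of 4 arrays was checked for 1 array far from the other 3. Of 34 groups 4 had one. For a single group chance gives about 1 in 20, but genes read on the same arrays are not independent, so the count is no test. COL11A2 had 6.03 in the induced array of B_1 with last number 1, below the other induced arrays. COL22A1 had 5.76 and COL9A3 had 6.93 in that same array, again the lowest of their group. That array was the lowest of the induced arrays for most tested members, so the low values are not particular to these genes. Without it COL9A2 was at -0.30 and COL22A1 at -0.31, and both still passed in limma. COL4A5 had 6.52 in the induced array of B_1 with last number 4, below the other induced arrays at 6.89 to 6.93.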

How the results depend on the processing

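The 7 called collagen genes kept their direction and passed under each alternative in which they were tested, with 5 to 16 calls over all settings. The filter at the median level removed COL6A3, COL22A1 and COL4A1 and left 5 calls, 4 of them shared. Quantile normalisation gave 12 calls (8 higher, 4 lower) and median centring 16 (12 and 4), with all 7 shared. The gained calls were small, at most 0.31 and 0.35 on the log2 scale. COL11A2 passed in 5 alternatives, among them the mean over its probe sets (-0.40) and the exon-level mean (-0.39). Some differences near 0 changed sign, none of them past the threshold: COL16A1 gave 0.119 with quantile normalisation and 0.126 with median centring, COL1A1 gave 0.079 and 0.109, COL7A1 gave 0.076 and 0.086, and COL6A2 gave -0.019 as an exon-level mean. The cause was not tested. Leaving out each array in turn gave 7 to 8 calls, 212 to 241 exon-level calls, 0 for the B code and 0 to 1 for its interaction, which called COL6A3 without induced replicate 3. Over those fits COL16A1 ran from -0.129 to 0.085, COL1A1 ran from -0.0999 to 0.039, COL23A1 ran from -0.033 to 0.073 and COL6A1 ran from -0.029 to 0.125. The count for B_4 against B_1 was 1 in uninduced arrays only and 1 in induced arrays only. Of the gene lists, the chondrocyte markers had 0 to 3 calls over the settings. Same-numbered arrays deviated little together (correlations 0.16, -0.02, 0.11 and 0.02), which cannot exclude that they were handled in pairs. With the pair as a replicate block, fixed or random, 7 genes were called, all 7 shared. The fixed block called 239 exon-level probe sets, against 246 without it, and 3 collagen receptors as higher in place of 5. The small number of arrays limits the precision, and 10 dim members could not be tested at the chosen limit.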

Other observations

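Nearest tested or measured protein-coding neighbours of the called members, by the order of genes in the RefSeq annotation of GRCh38.p14, were looked at after the values were seen, and their differences (arrays labelled induced minus arrays labelled uninduced) are given without a test. Beside COL6A3 on chromosome 2, COPS8 was at -0.28 and MLPH at 0.33. Beside COL19A1 on chromosome 6, LMBRD1, a lysosomal cobalamin transporter, had 6.99 in arrays labelled induced and 8.72 in arrays labelled uninduced, while COL9A1, on the other side, was at 0.08. Beside COL5A3 on chromosome 19, OLFM2 was at 0.17 and RDH8 at 0.18. Beside COL4A1 on chromosome 13, IRS2, an insulin receptor substrate, was at -1.22 and COL4A2 at -0.04. Beside COL22A1 on chromosome 8, FAM135B was at -0.60 and KCNK9 at 0.12. Beside COL4A5 on the X chromosome, COL4A6 was at 0.21 and IRS4 at 0.12. Beside COL9A2 on chromosome 1, ZMPSTE24 was at -0.11 and SMAP2 at -0.17.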
